A study of Saccharomyces cerevisiae with 36 samples.

Results

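The comparison set yeast lacking both MPK1 and RRP6 against yeast lacking MPK1 alone, after 10 min at 42 °C. It held 6 of the 36 libraries of the series, 3 a strain, chosen by strain and duration label, and every open reading frame (ORF) row of their count files, 6600 in number. The double deletion strain and the mpk1Δ strain were both of the Saccharomyces cerevisiae background BY4742, an alpha-mating-type laboratory haploid, and both lacked MPK1, so the strains differed by RRP6. Both were grown in rich medium (YPD) at 25 °C to mid-log phase and heated by adding pre-warmed medium. The labels named neither the clone behind each strain nor the cassette that replaced each gene, and the series design calls the 3 libraries of a group, lettered A, B and C, biological replicates. Total RNA was sequenced, and the same strains unheated (0 min) and after 45 min, and rrp6Δ and wild-type (WT) cells at 10 min, served to place the result.

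Rrp6 is a nuclease of the nuclear exosome, the RNA-degrading complex that trims the ends of small nucleolar RNAs (snoRNAs) and ribosomal RNA and removes cryptic and aberrant nuclear transcripts. It works beside the core exosome and is helped by the TRAMP complex, in which the helicase Mtr4 unwinds RNA and a poly(A) polymerase tags it. Mpk1, listed in the files under its other name SLT2, is the mitogen-activated protein kinase at the end of the cell wall integrity cascade, which heat activates. In heat, yeast cells are known to turn on chaperone genes through the factor Hsf1 and general stress genes through Msn2 and Msn4, and to turn down ribosomal protein and ribosome assembly genes.

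The deleted genes matched the strain labels. RRP6 (YOR001W, chrXV:326832-329033, build R64) had 1, 0 and 0 counts in the double deletion, against 69, 131 and 219 counts in mpk1Δ cells, and SLT2 (YHR030C, chrVIII:168890-170344) had 0, 0 and 0 counts in the double deletion, against 0, 0 and 1 in mpk1Δ cells. Reads counted to ORFs were 7255349, 4944624 and 11792808 in replicates A, B and C of the double deletion, against 3377426, 6722327 and 9472676 in mpk1Δ cells. Reads that were not aligned made up 2.01% to 3.66% in the 12 libraries lettered C across all groups, and 3.73% to 14% in those lettered A or B. Among the double deletion libraries, replicates B and C stood furthest from each other. The log2 levels of replicate C correlated across genes at 0.978 and 0.958 with its own replicates A and B and at 0.965 to 0.973 with the mpk1Δ libraries. Replicates A and B correlated at 0.981, and replicate B correlated at 0.913 to 0.941 with the mpk1Δ libraries. The defining markers of alpha cells, the labelled mating type, were present in all 6 libraries, and their summed level was 884, 964 and 216 CPM (the count scaled to the library's size after TMM correction, the trimmed mean of M values) in the double deletion, against 545, 293 and 548 CPM in mpk1Δ cells, while markers of a cells summed to 36.6 to 71.5 CPM in the double deletion, against 71.3 to 73.9 CPM in mpk1Δ cells. Genes of middle and late sporulation, another cell state, summed to 1442, 799 and 1987 CPM in the double deletion, against 2127, 2459 and 2143 CPM in mpk1Δ cells, most of it from CTT1, a catalase gene that general stress also induces. In bulk RNA, fewer cells of a type and less RNA per cell cannot be told apart.

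After 10 min of heat 29 of 49 ribosome biogenesis genes and 21 of 37 amino acid synthesis genes under Gcn4 were higher in the double deletion than in mpk1Δ cells, and 13 of 22 iron regulon genes and 10 of 20 phosphate genes were lower. Falls were also called at 14 of 38 respiratory chain genes and 5 of 18 trehalose and glycogen genes, and at 0 and 1 of these when only the 6 libraries were fitted. Of 6017 genes that passed the low-count filter, 692 rose and 512 fell, which is 11.5% and 8.51% of those tested, and 239 and 86 of them by at least 2-fold. A gene is said to have risen or fallen where it passed edgeR's quasi-likelihood test at a Benjamini-Hochberg adjusted p of 0.05 over all genes, n = 3 libraries a strain. Its log2 fold change is given with a standard error (SE) worked back from the F statistic of that test. That statistic uses a spread estimated over all 36 libraries. The median over all genes tested was -0.01 on the log2 scale. Scaled by total counts in place of TMM, the median was -0.12 and 1028 genes were called, 413 higher and 615 lower. The call count rested on single libraries and on the fit across all 36: it was 586 without double deletion replicate B, 604 without mpk1Δ replicate B, 1827 without double deletion replicate C and 317 (238 higher, 79 lower) when only the 6 libraries were fitted. The 2 strains did not overlap at 1992 genes (33.1%), with the double deletion above at 1022 (17.0%) and below at 970 (16.1%), among them 1063 of the 1204 called. The 12 largest rises and 12 largest falls named below were picked from called genes without overlap. Their lack of overlap was thus fixed by the rule and adds no support.

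**Figure D1:**
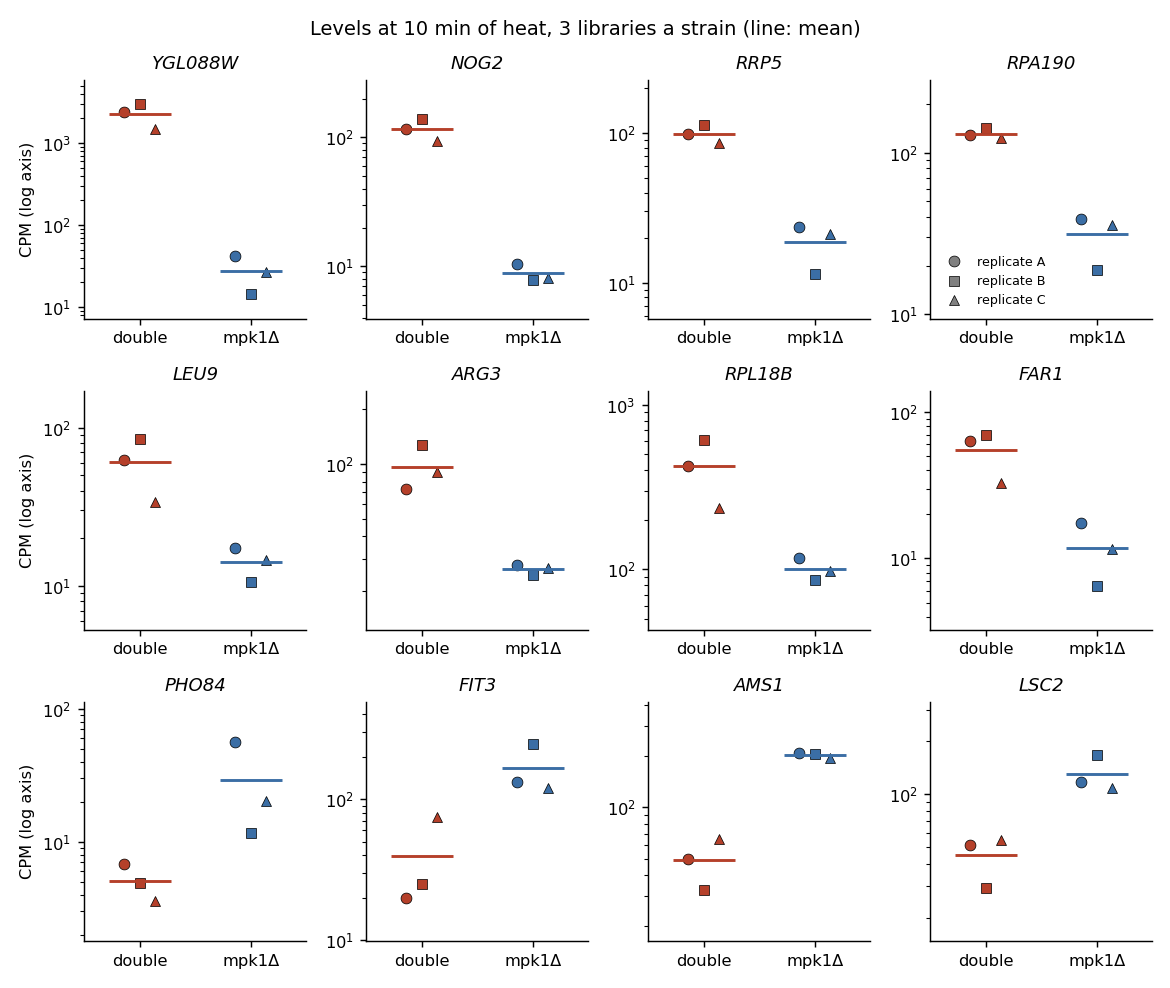
Levels of 12 genes in each of the 6 libraries at 10 min, in CPM on log axes that differ between panels, with the double deletion left of mpk1Δ cells, a line at the mean of 3 libraries and symbols for replicates A, B and C. In 8 panels every double deletion library lies above every mpk1Δ library, and in PHO84, FIT3, AMS1 and LSC2 every one lies below.

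Among annotated genes whose 6 libraries averaged 5 CPM or more, the 4 largest rises, in YLR154C-G, YGL088W, YJL047C-A and NOG2, lay where a reading frame or its intron shares bases with a ribosomal RNA or snoRNA, stable RNAs that the nuclear exosome is known to trim. The next, in RRP5, UTP14 and FAR1, lay at genes with no such overlap. YGL088W overlaps SNR10, YJL047C-A overlaps SNR60 and IRC13 overlaps SNR17A, which encodes the snoRNA U3, and SNR191 sits in the intron of NOG2, a gene for a GTPase of large ribosomal subunit assembly. The stretches are printed 5′ to 3′ on the gene's strand from the RefSeq R64 genome, with the bases annotated as snoRNA in capitals. They are chrVII:345902-346201 (plus strand), chrX:349044-349178 (minus), chrXV:780023-780184 (plus) and the intron stretch chrXIV:721925-722224 (minus).
YGL088W with SNR10: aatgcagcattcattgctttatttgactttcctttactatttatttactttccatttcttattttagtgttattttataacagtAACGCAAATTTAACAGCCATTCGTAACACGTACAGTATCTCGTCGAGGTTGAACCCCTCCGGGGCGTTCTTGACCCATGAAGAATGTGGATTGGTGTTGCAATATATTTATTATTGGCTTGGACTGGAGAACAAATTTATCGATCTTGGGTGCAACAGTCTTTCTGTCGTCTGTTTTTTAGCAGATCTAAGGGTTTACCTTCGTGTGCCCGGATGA
YJL047C-A with SNR60: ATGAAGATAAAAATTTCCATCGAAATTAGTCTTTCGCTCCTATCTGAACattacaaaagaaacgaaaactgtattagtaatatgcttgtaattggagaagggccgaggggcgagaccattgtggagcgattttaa
IRC13 with SNR17A: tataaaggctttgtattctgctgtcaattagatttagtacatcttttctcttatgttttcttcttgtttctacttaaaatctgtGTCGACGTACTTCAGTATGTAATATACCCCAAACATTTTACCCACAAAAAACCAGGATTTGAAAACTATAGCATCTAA
NOG2 intron with SNR191: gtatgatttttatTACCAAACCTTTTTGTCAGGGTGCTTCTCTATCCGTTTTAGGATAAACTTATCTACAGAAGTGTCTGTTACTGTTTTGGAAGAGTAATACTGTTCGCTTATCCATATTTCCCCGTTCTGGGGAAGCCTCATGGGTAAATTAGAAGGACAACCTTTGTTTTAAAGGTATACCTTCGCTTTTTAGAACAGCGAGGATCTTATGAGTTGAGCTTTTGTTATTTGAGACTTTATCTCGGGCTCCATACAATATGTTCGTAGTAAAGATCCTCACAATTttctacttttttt

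YGL088W stood at 2403, 2970 and 1472 CPM in the double deletion, against 42.1, 14.4 and 26.5 CPM in mpk1Δ cells. Every double deletion library was far above every mpk1Δ library, and the log2 fold change was 6.39 ± 0.42 (SE, edgeR's quasi-likelihood test, adjusted p = 3.39e-12). YJL047C-A stood at 118, 174 and 80.3 CPM in the double deletion, against 6.48, 4.09 and 9.63 CPM in mpk1Δ cells, a rise of 4.14 ± 0.33. The 2 strains again did not overlap. IRC13, at 26.3, 17.8 and 16.9 CPM in the double deletion, against 11.3, 3.18 and 5.34 CPM in mpk1Δ cells, rose by 1.75. Thus all 3 genes whose coding sequence overlaps a snoRNA on the same strand rose. NOG2 had 116, 140 and 94.1 CPM in the double deletion, against 10.5, 7.88 and 8.06 CPM in mpk1Δ cells, and rose by 3.75 ± 0.36 (edgeR adjusted p = 1.05e-08).

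Of 8 genes that carry a snoRNA in an intron, 4 rose and none fell. Beside NOG2 these were RPL7B, a ribosomal protein gene hosting SNR59, at 95.2, 149 and 53.1 CPM in the double deletion, against 32.4, 14.8 and 31.5 CPM in mpk1Δ cells (log2 1.91), IMD4, an IMP dehydrogenase gene hosting SNR54 (1.10), and TEF4, a translation elongation factor gene hosting SNR38 (0.90). EFB1, an elongation factor gene with SNR18 in its intron, overlapped between the strains at 3710, 5514 and 4008 CPM in the double deletion, against 3475, 3597 and 3790 CPM in mpk1Δ cells. Of 21 genes that start within 500 bases downstream of a same-strand snoRNA gene, 3 rose and none fell, a share near the background. YLR154C-G, which lies inside the 25S rRNA gene RDN25-2, had 632, 950 and 1552 CPM in the double deletion, against 4.32, 10.9 and 8.80 CPM in mpk1Δ cells, a log2 difference of 6.97 ± 0.87 (edgeR adjusted p = 1.23e-06), and its level is uncertain because the rDNA repeats are near-identical copies. At 0 min YLR154C-G was called higher in the double deletion too, by 4.08. The 3 genes whose coding sequence overlaps a snoRNA were also called higher at 0 min, each by more than at 10 min. YGL088W rose by 7.57 and IRC13 by 5.25 there. In none of these 3 did the difference between the 10 min and 0 min effects pass the test. Of the 8 genes with a snoRNA in an intron, none rose at 0 min and RPL7B fell (log2 -0.97). The 10 min effect lay above the 0 min effect in 5 of the 8 and below it in none. This grouping by non-coding RNA was chosen after these values were seen, and whether the counting used strand or introns is not given in the sources used here, so reads of an ORF and of an overlapping RNA cannot be told apart.

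Reads aligned to several places, which were not counted to any gene, made up 12.7%, 14.9% and 17.5% of the reads of the double deletion, against 4.10%, 4.11% and 5.50% in mpk1Δ cells. Those outside any feature made up 7.59%, 7.49% and 6.25% in the double deletion, against 5.51%, 3.72% and 4.91% in mpk1Δ cells, and ambiguous reads 0.841%, 0.964% and 1.04% in the double deletion, against 1.84%, 1.41% and 1.34% in mpk1Δ cells. The strains did not overlap in any of these shares, and each gave an exact two-sided permutation p = 0.1, the smallest that 3 against 3 libraries allow. In rrp6Δ cells at 10 min the multiply aligned share averaged 20.1% ± 1.57, against 5.0% ± 0.19 in WT cells (SD, n = 3 each).

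Genes of ribosome assembly were higher in the double deletion as a broad group. Of 49 ribosome biogenesis genes tested, 29 rose and none fell, with a median log2 fold change of 0.82 against -0.01 over all genes, and 48 of the 49 estimates were above 0. RRP5, which encodes a processing factor needed for the rRNAs of both subunits, had 99.1, 114 and 85.8 CPM in the double deletion, against 23.8, 11.5 and 21.1 CPM in mpk1Δ cells. Every double deletion library was above every mpk1Δ library, and RRP5 rose by 2.42 ± 0.27 (edgeR adjusted p = 2.16e-07). TSR1, a small-subunit assembly gene, rose by 2.22 ± 0.39 and DBP2, encoding an RNA helicase, by 2.16 ± 0.22, while UTP14, a processome gene outside the list, rose by 2.37 ± 0.50. RRP14, an assembly gene, and CBF5, encoding the pseudouridine synthase of snoRNA particles, did not pass the test at 0.38 ± 0.16 and 0.64 ± 0.26. The count of ribosome biogenesis genes that rose was 16 without double deletion replicate B, 16 without mpk1Δ replicate B, 38 without double deletion replicate C and 14 when only the 6 libraries were fitted, and none fell in any of these.

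Of 21 genes of RNA polymerases I and III, which make ribosomal and transfer RNA, 5 rose, none fell and 16 did not pass, with a median of 0.36, where 11.5% of all genes rose. RPA190, which encodes the largest subunit of RNA polymerase I, had 129, 142 and 123 CPM in the double deletion, against 39.2, 18.8 and 35.7 CPM in mpk1Δ cells. The strains did not overlap, and RPA190 rose by 2.08 ± 0.27 (edgeR adjusted p = 2.31e-06). RPA135, for the second-largest polymerase I subunit, rose by 1.61 ± 0.19, RPO31, for the largest polymerase III subunit, by 0.86 ± 0.18, and RPA34 by 0.79 ± 0.15. When only the 6 libraries were fitted, 3 of the RNA polymerase I and III genes rose.

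The start regions of RRP5 and RPA190 are printed because they hold the 2 letter strings known as PAC (GATGAG) and RRPE (AAAATTTT), which mark promoters of ribosome assembly genes. Each stretch runs from 250 bases before the start codon to 50 bases from it, 5′ to 3′ on the gene's strand, from RefSeq R64, with PAC and RRPE matches of either strand in capitals. They are chrXIII:731074-731373 (minus) and chrXV:960737-961036 (plus).
RRP5: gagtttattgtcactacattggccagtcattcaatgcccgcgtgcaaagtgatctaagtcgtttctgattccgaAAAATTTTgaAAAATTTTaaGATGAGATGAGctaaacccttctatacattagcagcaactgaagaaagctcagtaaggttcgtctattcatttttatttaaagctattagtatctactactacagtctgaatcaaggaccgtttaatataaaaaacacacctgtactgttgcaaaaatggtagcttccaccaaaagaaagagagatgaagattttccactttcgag
RPA190: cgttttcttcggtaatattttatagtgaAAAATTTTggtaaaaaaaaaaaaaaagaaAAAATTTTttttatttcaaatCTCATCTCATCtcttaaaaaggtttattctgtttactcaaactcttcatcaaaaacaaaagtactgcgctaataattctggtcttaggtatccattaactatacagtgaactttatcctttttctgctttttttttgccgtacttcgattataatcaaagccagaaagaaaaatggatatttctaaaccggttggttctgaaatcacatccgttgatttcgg

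Matches begin at -176, -166, -156 and -151 relative to the start codon of RRP5 and at -222, -193, -172 and -167 in RPA190, and in both genes the pair of PAC matches overlap each other. PAC was found on either strand in 49 of the 49 ribosome biogenesis windows and RRPE in 43, against 19.8% and 9.13% of 5916 windows of the same length. Among the 636 annotated genes that rose, 34.1% held PAC and 20.4% RRPE, against 10.7% and 1.79% of the 503 that fell. Both strings stood together before 263 genes tested, of which 92 rose and none fell (median log2 0.46), and outside the ribosome biogenesis and polymerase lists before 207 genes, of which 64 rose and none fell (median 0.38). These shares describe letters in a window and say nothing of what bound there.

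Genes of nuclear RNA decay and of translation held smaller differences. MTR4, encoding the helicase of TRAMP, had 40.9, 62.8 and 28.2 CPM in the double deletion, against 17.6, 9.39 and 13.4 CPM in mpk1Δ cells, and rose by 1.72 ± 0.31 (edgeR adjusted p = 2.10e-04). TRF5 and AIR2, for a poly(A) polymerase and an RNA-binding subunit of TRAMP, rose by 0.56 and 0.39, and RNH70, for an RNA 3′ exonuclease, fell by 0.40. Of 13 exosome cofactor and TRAMP genes, 3 thus rose and 1 fell, where 11.5% of all genes rose and 8.51% fell. Without mpk1Δ replicate B, or when only the 6 libraries were fitted, 1 gene of the exosome cofactors and TRAMP rose and none fell. Without double deletion replicate C 6 rose and 1 fell. The call of RNH70 was lost in 7 of 14 alternatives. In the core exosome RRP4 and RRP45 rose, by 0.57 ± 0.09 and 0.46 ± 0.14, and the other 8 of 10 genes did not pass, DIS3, its catalytic subunit, at 0.27 ± 0.10. The 2 of 10 that rose were near the 11.5% over all genes. Without either replicate B, or when only the 6 libraries were fitted, 1 core exosome gene rose. SEN1, for the helicase of non-coding transcription termination, rose by 1.04, and RAT1, for the nuclear 5′ exonuclease, by 0.81. Of 15 tested genes of Nrd1-Nab3-Sen1 termination and its targets, 2 rose and 2 fell (median 0.06). Of 19 genes of cytoplasmic mRNA decay, 3 rose and none fell (median 0.14). Of 25 translation factors 7 rose and 1 fell, TIF4631 (the cap-binding scaffold eIF4G) by 1.24, YEF3 (an elongation factor) by 1.01 and NIP1 (a subunit of eIF3) by 0.87. The 3 factors did not overlap between strains, and 3 translation factors rose and 1 fell when only the 6 libraries were fitted.

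By their summed level, the ribosomal protein genes did not move alike in all double deletion libraries. Of 137 cytosolic ribosomal protein genes, 13 rose and none fell, a share near the 11.5% background, although 132 of the 137 estimates were above 0 and the median was 0.45. Their summed level was 48210, 61660 and 19810 CPM in replicates A, B and C of the double deletion, against 32300, 27350 and 37000 CPM in mpk1Δ cells. Replicates A and B lay above every mpk1Δ library and replicate C below every one. RPL18B, for a large-subunit protein, was an exception, with 426, 606 and 235 CPM in the double deletion, against 118, 85.4 and 96.8 CPM in mpk1Δ cells, and rose by 2.08 ± 0.27 (edgeR adjusted p = 1.73e-06). RPS9A, for a small-subunit protein, rose by 1.44 ± 0.22 without overlap, and RPL27B, called at 1.32 ± 0.39, overlapped at 130, 155 and 35.2 CPM in the double deletion, against 54.6, 25.1 and 48.3 CPM in mpk1Δ cells. Without double deletion replicate C, 92 of the cytosolic ribosomal proteins rose with a median of 0.85, while 4 rose without double deletion replicate B (median 0.12), 5 without mpk1Δ replicate B and 4 when only the 6 libraries were fitted. Most of these genes are paralog pairs, whose shared reads are not in the gene counts.

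**Figure D2:**
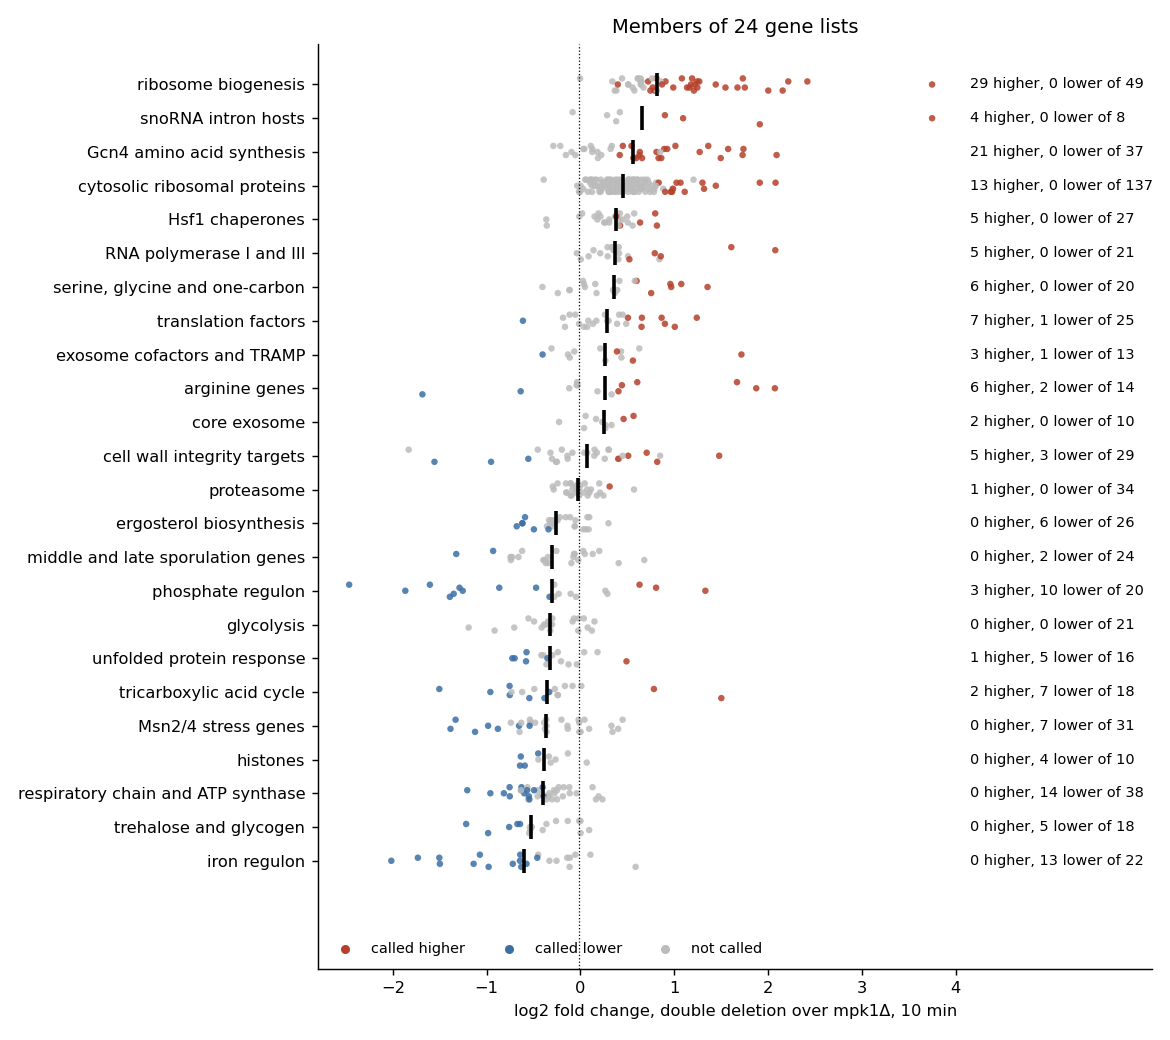
Log2 fold changes of the double deletion over mpk1Δ cells at 10 min for the tested members of 24 gene lists, one point a gene, red where called higher, blue where called lower and grey where not called, with a black bar at each list's median and a dotted line at the median of all genes. The lowest grey point of the cell wall integrity targets is SLT2, absent from both strains. Ribosome biogenesis leads with 29 of 49 genes higher, and the iron regulon ends the order with 13 of 22 lower.

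Many genes for amino acid synthesis were higher in the double deletion, but those of sulfur and methionine were not as a group. Of 25 sulfur and methionine genes 1 rose and 2 fell, with a median of -0.01. Over all genes 11.5% rose and 8.51% fell. Of 37 genes under the control of Gcn4, the activator of amino acid synthesis, 21 rose and none fell, with a median of 0.57. LEU9, for the first enzyme of leucine synthesis, had 62.0, 85.2 and 34.0 CPM in the double deletion, against 17.3, 10.6 and 14.7 CPM in mpk1Δ cells, and rose by 2.09 ± 0.27 (edgeR adjusted p = 1.69e-06). ILV3, for an enzyme of isoleucine and valine synthesis, had 145, 150 and 92.4 CPM in the double deletion, against 47.0, 31.7 and 37.7 CPM in mpk1Δ cells, and rose by 1.74 ± 0.21. Neither gene overlapped between the strains. ARO4, for the first step of aromatic amino acid synthesis, rose by 1.73 and LEU1 by 1.58. The count of Gcn4 genes that rose was 12 when only the 6 libraries were fitted and 16 to 22 without double deletion replicate B or C or mpk1Δ replicate B.

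Arginine genes moved both ways. ARG3, for the synthesis enzyme ornithine carbamoyltransferase, had 73.1, 127 and 90.2 CPM in the double deletion, against 27.8, 24.4 and 26.6 CPM in mpk1Δ cells. Every double deletion library was the higher, and ARG3 rose by 1.88 ± 0.21 (edgeR adjusted p = 1.49e-07). ARG1, for argininosuccinate synthase, rose by 1.67 ± 0.26, while CAR2, for an enzyme that breaks arginine down, fell by 1.68 ± 0.24. Of 14 arginine genes 6 rose and 2 fell, and 3 rose without double deletion replicate B, mpk1Δ replicate A or mpk1Δ replicate B, or when only the 6 libraries were fitted. Of 20 genes of serine, glycine and one-carbon metabolism 6 rose and none fell, among them MIS1, for a mitochondrial folate enzyme (1.36), GCV1 and GCV2, for the glycine cleavage system (1.08 and 0.97), and the purine gene ADE6 (0.96).

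Of 22 iron regulon genes, which serve iron uptake and use, 13 fell in the double deletion and none rose (median -0.60). FIT3, for a cell wall protein that retains siderophores, had 19.8, 24.9 and 74.8 CPM in the double deletion, against 132, 244 and 120 CPM in mpk1Δ cells. All double deletion libraries were below all mpk1Δ libraries, replicate C closest, and FIT3 fell by 2.02 ± 0.38 (edgeR adjusted p = 3.80e-04). FIT2, its relative, fell by 1.73 ± 0.48, ARN2, a siderophore transporter gene, by 1.50 ± 0.19, and TIS11, whose protein destabilises mRNAs in iron shortage, by 1.50 ± 0.27. The count of iron regulon genes that fell was 7 without double deletion replicate B and 5 when only the 6 libraries were fitted.

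Of 20 phosphate regulon genes 10 fell and 3 rose. PHO84, for the high-affinity phosphate transporter, had 6.82, 4.88 and 3.60 CPM in the double deletion, against 56.2, 11.7 and 20.1 CPM in mpk1Δ cells. The strains did not overlap, although mpk1Δ replicate A was far above its fellows, and PHO84 fell by 2.47 ± 0.67 (edgeR adjusted p = 0.00872). SPL2, for an inhibitor of low-affinity phosphate transport, had 5.08, 6.88 and 5.07 CPM in the double deletion, against 31.1, 11.7 and 19.8 CPM in mpk1Δ cells, and fell by 1.87 ± 0.34. The acid phosphatase genes PHO5 and PHO12 fell by 1.26 ± 0.20 and 1.39 ± 0.24, where PHO12 is uncertain because a near-identical copy exists. Without double deletion replicate B or when only the 6 libraries were fitted, 6 phosphate regulon genes fell and 1 rose.

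The start regions of ILV3 (chrX:466159-466458), FIT3 (chrXV:1061006-1061305) and SPL2 (chrVIII:375051-375350), all on the minus strand, are printed as examples of the 3 lists, cut and oriented as above. Each is the called gene of largest change among those of its list that hold the string marked. Capitals mark TGACTC, the core recognised by Gcn4, in ILV3, GCACCC, the core of Aft1, the iron-sensing activator, in FIT3 (on the opposite strand), and CACGTG, the core of Pho4, the phosphate activator, in SPL2.
ILV3: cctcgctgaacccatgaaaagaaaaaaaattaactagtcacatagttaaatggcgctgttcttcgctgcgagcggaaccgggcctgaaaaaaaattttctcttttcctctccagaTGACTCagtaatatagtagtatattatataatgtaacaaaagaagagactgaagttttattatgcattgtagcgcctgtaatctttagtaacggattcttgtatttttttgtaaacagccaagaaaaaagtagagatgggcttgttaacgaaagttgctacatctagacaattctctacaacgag
FIT3: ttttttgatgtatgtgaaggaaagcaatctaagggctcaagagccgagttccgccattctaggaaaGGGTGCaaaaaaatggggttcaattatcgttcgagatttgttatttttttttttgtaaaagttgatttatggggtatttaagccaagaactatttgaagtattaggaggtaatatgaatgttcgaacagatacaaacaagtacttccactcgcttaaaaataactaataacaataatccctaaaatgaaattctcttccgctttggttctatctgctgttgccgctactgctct
SPL2: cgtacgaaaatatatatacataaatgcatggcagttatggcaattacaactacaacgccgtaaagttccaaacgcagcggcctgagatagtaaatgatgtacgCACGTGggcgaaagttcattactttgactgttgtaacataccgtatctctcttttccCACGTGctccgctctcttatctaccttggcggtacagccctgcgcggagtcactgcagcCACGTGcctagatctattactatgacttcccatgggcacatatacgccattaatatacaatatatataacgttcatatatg

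On either strand TGACTC stood in 23 of 37 Gcn4 windows against 8.1% of all, GCACCC in 12 of 22 iron windows against 4.29% of all, and CACGTG in 5 of 20 phosphate windows against 2.94% of all. Of the genes called in each list, 13 of 21, 9 of 13 and 3 of 13 held the string. SPL2 held CACGTG 3 times, at -147, -90 and -31.

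Some genes of respiration, the tricarboxylic acid cycle and storage carbohydrate fell in the double deletion, while most members of the respiratory and storage lists did not pass the test. AMS1, for the vacuolar mannosidase, had 49.5, 32.9 and 65.4 CPM in the double deletion, against 208, 206 and 195 CPM in mpk1Δ cells, and fell by 2.03 ± 0.20 (edgeR adjusted p = 2.08e-08). LSC2, for a succinyl-CoA ligase subunit, had 51.7, 29.5 and 54.8 CPM in the double deletion, against 117, 166 and 109 CPM in mpk1Δ cells, and fell by 1.50 ± 0.17. In both genes all double deletion libraries were the lower ones. Of 38 respiratory chain and ATP synthase genes 14 fell and none rose, among them COX4 and COX5A, for cytochrome oxidase subunits, by 1.21 and 0.82, and SDH1, for succinate dehydrogenase, by 0.96. Without double deletion replicate B or mpk1Δ replicate B only 2 respiratory chain and ATP synthase genes fell, without double deletion replicate A 5, without double deletion replicate C 20, and none when only the 6 libraries were fitted. CYB2, for the enzyme that feeds lactate to cytochrome c, fell by 1.86 ± 0.20. Of 18 tricarboxylic acid cycle genes 7 fell and 2 rose, with CIT2, for the peroxisomal citrate synthase, rising by 0.78. Without double deletion replicate B or mpk1Δ replicate B, 2 genes of the tricarboxylic acid cycle fell, 4 without double deletion replicate A and 1 when only the 6 libraries were fitted.

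GDB1 and GLC3, for glycogen debranching and branching, fell by 1.22 and 0.98, and TPS3, for a trehalose synthase subunit, by 0.76. In all 5 of 18 trehalose and glycogen genes fell and none rose, with 2 falling without double deletion replicate B, 3 without mpk1Δ replicate B or C and 1 when only the 6 libraries were fitted. Of 31 Msn2/4 stress genes 7 fell and none rose (median -0.36), RTN2, a reticulon gene, by 1.39 ± 0.24 and the aldehyde dehydrogenase genes ALD4 and ALD3 by 1.33 ± 0.31 and 1.12 ± 0.38. HSP12, the small membrane chaperone gene of this list, overlapped at 7405, 3525 and 10760 CPM in the double deletion, against 7553, 10650 and 6749 CPM in mpk1Δ cells. The count of Msn2/4 stress genes that fell was 4, 2 and 12 without double deletion replicates A, B and C in turn, 3 without mpk1Δ replicate B and 1 when only the 6 libraries were fitted. The string AGGGG, which Msn2 and Msn4 recognise, stood in the windows of 33.8% of the annotated genes that fell, against 16.5% of those that rose and 22.1% of all tested. Other large falls were CHA1, for serine and threonine breakdown (1.80), BDH2, a putative dehydrogenase gene (1.71), GAL2, the galactose permease gene (1.84), SPS19, for peroxisomal fatty acid breakdown (2.07), and HFM1, a meiotic helicase gene (1.86).

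Of 27 Hsf1 chaperone genes 5 rose and none fell, with 24 of the estimates above 0 and a median of 0.38, and DESeq2 called 11 higher and 1 lower. Over all genes 11.5% rose and 8.51% fell. SSE2, for a nucleotide exchange factor of Hsp70, had 1712, 1899 and 2157 CPM in the double deletion, against 943, 1255 and 1119 CPM in mpk1Δ cells, and rose by 0.80 ± 0.18 (edgeR adjusted p = 0.00225). CUR1, for a sorting factor of misfolded proteins, rose by 0.82, FES1 by 0.64 and SSE1 by 0.42. SSA4, for the inducible Hsp70, overlapped at 29460, 40010 and 44090 CPM in the double deletion, against 28640, 33690 and 32910 CPM in mpk1Δ cells, as did HSP104, for the disaggregase, at 27710, 35600 and 35440 CPM in the double deletion, against 26780, 28370 and 31250 CPM in mpk1Δ cells. Their estimates were 0.25 ± 0.25 and 0.19 ± 0.25, and 1 gene of the Hsf1 chaperones rose without either replicate B or when only the 6 libraries were fitted, 2 without mpk1Δ replicate A or C and 8 without double deletion replicate A. Of 16 genes of the unfolded protein response of the endoplasmic reticulum 5 fell and 1 rose, EUG1, for a protein disulfide isomerase, and SIL1, for a chaperone exchange factor, falling by 0.73 and 0.70. Of the unfolded protein response 1 to 3 genes fell without double deletion replicate A or B or mpk1Δ replicate B or C, 8 with total counts and none when only the 6 libraries were fitted. Of 34 proteasome genes 1 rose and none fell.

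Of 29 cell wall integrity targets, SLT2 itself among them, 5 rose and 3 fell, shares near the 11.5% and 8.51% over all genes, and 2 rose and 2 fell when only the 6 libraries were fitted. Without double deletion replicate A or B or mpk1Δ replicate B or C 2 or 3 rose. The list had a median of 0.07 that was -0.05 when libraries were scaled by total counts. PRM5, a membrane protein gene and target of Rlm1, the factor that Mpk1 activates, had 115, 144 and 93.1 CPM in the double deletion, against 41.6, 36.1 and 47.9 CPM in mpk1Δ cells, and rose by 1.48 ± 0.20 (edgeR adjusted p = 3.61e-06). FKS1, for glucan synthase, rose by 0.82 ± 0.17. NCW2, a cell wall protein gene, had 36.4, 30.6 and 30.5 CPM in the double deletion, against 130, 72.1 and 87.2 CPM in mpk1Δ cells, and fell by 1.56 ± 0.26, and HSP150, for a secreted wall protein, fell by 0.95. None of these 4 overlapped between strains. Among 18 kinases and sensors of the pathway the phosphatase gene PTP3 and the sensor gene MID2 rose, by 0.96 and 0.50, and none fell, a share near the 11.5% over all genes. None of the 18 was called without double deletion replicate B, without mpk1Δ replicate B or when only the 6 libraries were fitted, and with total counts 2 rose and 2 fell.

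Mating and cell cycle genes included single large rises. FAR1, for the inhibitor that arrests cells before mating, had 63.6, 69.7 and 32.9 CPM in the double deletion, against 17.6, 6.51 and 11.5 CPM in mpk1Δ cells, and rose by 2.27 ± 0.39 (edgeR adjusted p = 1.45e-04). STE12, for the pheromone-response activator, rose by 1.32 ± 0.28 and GPA1, for the pheromone G protein, by 0.97 ± 0.12. The strains did not overlap in these 3 genes, while the pheromone gene MF(ALPHA)1 overlapped at 399, 629 and 97.0 CPM in the double deletion, against 228, 100 and 211 CPM in mpk1Δ cells. Of 18 alpha-specific and haploid genes 4 rose and 3 fell, while 2 rose without double deletion replicate A or B, and 1 rose and none fell when only the 6 libraries were fitted. The alpha marker sums given above stand beside these values, and their part was not tested. Of 24 genes of the G1 and S phases 3 rose, PCL1, a cyclin gene (1.89), RNR1, for ribonucleotide reductase (1.13), and TOS4 (1.11), and 1 fell, while 7 rose without double deletion replicate C. Over all genes 11.5% rose and 8.51% fell, so the 3 that rose were near the background share. Of 10 histone genes 4 fell, among them HHT1 and HHF1 by 0.64 each, of 26 ergosterol genes 6 fell, ERG9, for squalene synthase, by 0.68, and none of either list rose. Of the histones 1 fell without either replicate B, 7 without mpk1Δ replicate A and none when only the 6 libraries were fitted, where 1 of the ergosterol genes fell. Of 24 middle and late sporulation genes 2 fell, a share near the 8.51% over all genes. Of 22 early meiotic genes 3 fell and 1 rose, no early meiotic gene being called when only the 6 libraries were fitted. HIS3, a histidine synthesis gene that is partly deleted in BY4742 strains, rose by 0.78 at 47.1, 61.0 and 38.9 CPM in the double deletion, against 28.4, 29.7 and 27.0 CPM in mpk1Δ cells.

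**Figure D3:**
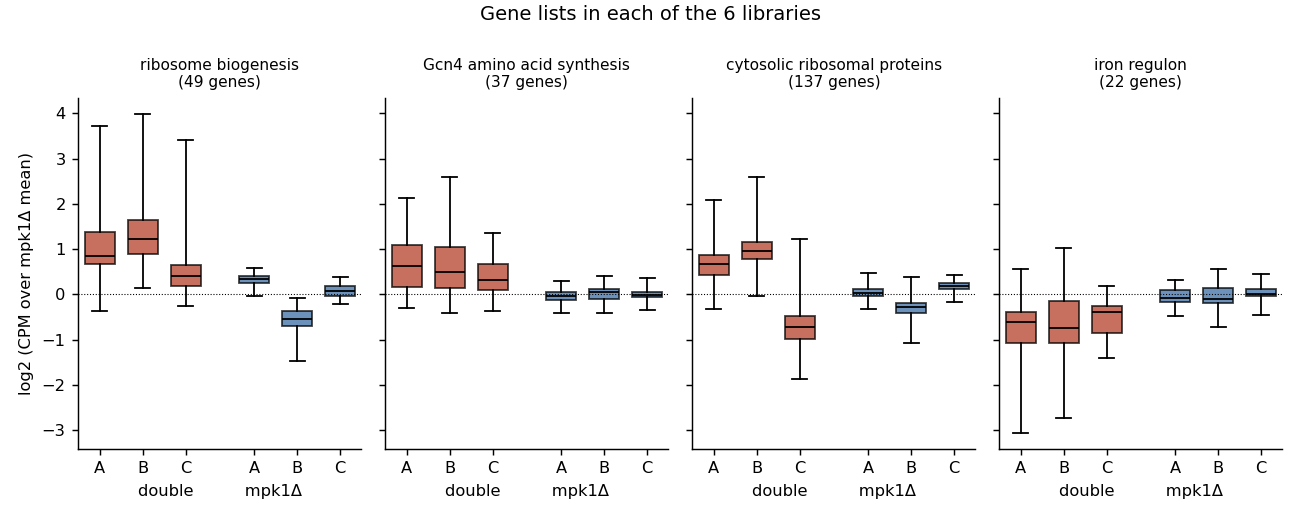
Log2 of each gene's CPM over its mpk1Δ mean, by library, for 4 gene lists at 10 min, with double deletion replicates A, B and C left of mpk1Δ replicates; boxes span the quartiles with a line at the median and whiskers reach the lowest and highest gene. Gcn4 genes lie above 0 in all 3 double deletion libraries by their medians, and ribosomal protein genes lie above 0 in A and B and below 0 in C.

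Reading frames absent from the reference annotation were counted too, and 302 of them were tested. Of these 56 rose and 9 fell, against 11.5% higher and 8.51% lower over all genes, and 27 rose and 2 fell when only the 6 libraries were fitted. YMR013W-A had 95.6, 119 and 68.4 CPM in the double deletion, against 3.24, 0.757 and 2.93 CPM in mpk1Δ cells, and rose by 5.36 ± 0.31 (edgeR adjusted p = 2.11e-13). YCL007C, at 17.9, 20.2 and 16.3 CPM in the double deletion, against 0.270, 0.454 and 0.524 CPM in mpk1Δ cells, rose by 5.26 ± 0.37, and YNL097W-A, YLR171W and YLR120W-A by 4.72, 4.58 and 3.98. These 5 were picked from called frames without overlap between strains, so that trait was fixed by the rule. No role is known for them from the annotation used here.

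The unheated strains differed at fewer genes, 281 higher and 157 lower in the double deletion (4.67% and 2.61% of those tested, 7.28% in all), and 173 of the 10 min calls were called the same way at 0 min, 14.4% of the 10 min calls and 39.5% of the 0 min calls. The difference between the 10 min effect and the 0 min effect, tested as an interaction, was above 0 for 259 genes and below 0 for 195 (4.30% and 3.24%, 7.55% in all), or for 100 and 327 with total counts, where the median of all genes was -0.23. Ribosome assembly set the time points apart. None of the 49 ribosome biogenesis genes was called at 0 min (median -0.09), and the 10 min effect exceeded the 0 min effect in 16 of them, in 7 without double deletion replicate B or mpk1Δ replicate B at 10 min, in 10 without mpk1Δ replicate C at 0 min, in 28 without double deletion replicate C at 10 min and in 9 with total counts. RRP5 averaged 172 ± 15.1 CPM in the double deletion and 192 ± 23.1 CPM in mpk1Δ cells at 0 min (SD, n = 3 each), with an interaction of 2.58 (edgeR adjusted p = 2.07e-05). Of the list's summed level, 2757, 3312 and 2125 CPM stood in the double deletion at 10 min, against 1754, 1063 and 1519 CPM in mpk1Δ cells, where the unheated sums were 11790, 10810 and 10820 CPM in the double deletion, against 11850, 11320 and 12610 CPM in mpk1Δ cells.

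The 10 min effect differed from the 0 min effect at 12 of 20 phosphate genes and 6 of 14 arginine genes. PHO84 averaged 7.08 ± 6.01 CPM in the unheated double deletion and 789 ± 305 CPM in unheated mpk1Δ cells, and 14 of 20 phosphate regulon genes fell at 0 min (median -1.32). The 10 min effect lay above the 0 min effect in 12 of them and below it in none. PHO84 itself had an interaction of 4.33 (edgeR adjusted p = 0.00329). Of 14 arginine genes the 10 min effect lay below the 0 min effect in 6 and above it in none, 4 below without double deletion replicate B or mpk1Δ replicate A at 0 min or mpk1Δ replicate B at 10 min. ARG1 averaged 175 ± 9.87 CPM in the unheated double deletion and 9.90 ± 2.50 CPM in unheated mpk1Δ cells, an effect 2.49 larger on the log2 scale than that at 10 min (interaction -2.49, edgeR adjusted p = 7.27e-05). Of 37 Gcn4 genes 24 rose at 0 min (median 0.76), and the 10 min effect was below the 0 min effect in 8 and above it in none. NAB2, for a poly(A)-binding protein, rose by 1.49 at 0 min and at 10 min overlapped at 139, 162 and 169 CPM in the double deletion, against 176, 166 and 167 CPM in mpk1Δ cells. Among reading frames absent from the annotation 71 rose and 2 fell at 0 min.

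**Figure D4:**
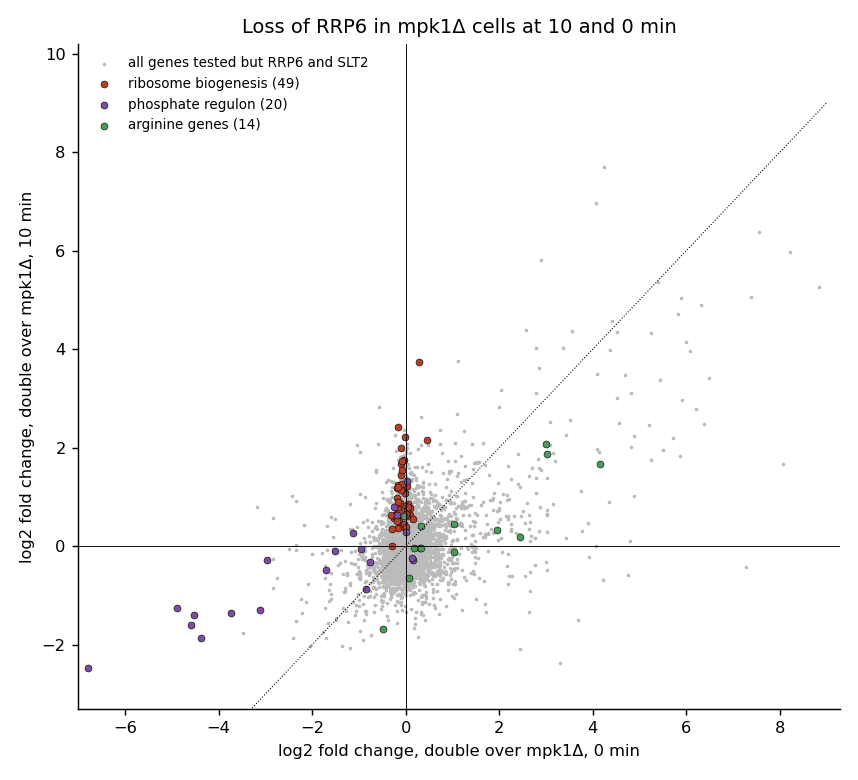
Log2 fold change of the double deletion over mpk1Δ cells at 10 min (vertical) against that at 0 min (horizontal), one point a gene, for all tested genes but RRP6 and SLT2, with a dotted line where both are equal. Ribosome biogenesis genes stand on the vertical axis near 0 on the horizontal one, and phosphate genes reach further to the left than they fall.

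At 45 min 933 genes rose and 742 fell in the double deletion (15.5% and 12.3%, 27.8% in all), and 646 of the 10 min calls were called the same way. The 10 min and 45 min effects, which share no library, differed by the interaction test at 83 genes (1.38%), above 0 for 43 and below 0 for 40 (0.715% and 0.665%). Of the ribosome biogenesis genes 18 rose and none fell at 45 min (median 0.59), of the cytosolic ribosomal protein genes 51 rose and none fell (0.68), and of the Hsf1 chaperone genes 13 rose and none fell (0.61). NOG2 averaged 206 ± 26.3, 117 ± 23.0 and 353 ± 63.6 CPM at 0, 10 and 45 min in the double deletion, against 169 ± 17.6, 8.82 ± 1.48 and 14.9 ± 5.56 CPM at the same times in mpk1Δ cells (SD, n = 3 each). Its 10 min effect exceeded the 0 min effect by 3.47 (edgeR adjusted p = 1.01e-05).

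Loss of RRP6 was also set against WT in cells that kept MPK1, at the same 10 min. There 872 genes rose and 949 fell in rrp6Δ cells (14.5% and 15.8%, 30.3% in all), and 441 of the calls in mpk1Δ cells were called the same way, 36.6% of those calls and 24.2% of the calls with MPK1, with 40 called the opposite way. The effect of losing RRP6 in mpk1Δ cells minus that in MPK1 cells, tested as an interaction, was above 0 for 611 genes and below 0 for 399 (10.2% and 6.63%, 16.8% in all), or for 339 and 372 with total counts, where the median of all genes was -0.11. Ribosomal protein genes formed the largest block. The interaction was above 0 for 131 of 137 cytosolic ribosomal protein genes, with a median of 1.87, and in rrp6Δ cells 128 fell and 4 rose (median -1.42). Their summed level was 74810, 41550 and 39390 CPM in rrp6Δ cells, against 124000, 164200 and 120200 CPM in WT cells, beside the 32300, 27350 and 37000 CPM given above for mpk1Δ cells. The count above 0 was 110 without double deletion replicate B, 135 without replicate C and 14 when only the 12 libraries of this contrast were fitted.

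Of 31 Msn2/4 stress genes, of which 7 fell and none rose in the double deletion, 14 rose and 2 fell in rrp6Δ cells, and the interaction was below 0 for 14 and above 0 for none (median -1.0), with 7 below 0 without double deletion replicate B or WT replicate B, 9 without mpk1Δ replicate B or rrp6Δ replicate C and 5 when only the 12 libraries were fitted. HSP12 averaged 7137 ± 939 CPM in rrp6Δ cells and 1576 ± 737 CPM in WT cells (SD, n = 3 each), and its interaction was -2.38 (edgeR adjusted p = 0.0148). BDH2 averaged 60.9 ± 11.7 CPM in rrp6Δ cells and 55.7 ± 10.8 CPM in WT cells, against 122 ± 52.4 CPM in the double deletion and 402 ± 49.2 CPM in mpk1Δ cells, an interaction of -1.84. AMS1 had an interaction of -1.62 and COX4 of -1.33. Of 38 respiratory chain and ATP synthase genes 13 had an interaction below 0 and none above, but 3 did without double deletion replicate B or mpk1Δ replicate B, 4 without WT replicate B, 26 without double deletion replicate C, 21 without WT replicate C and 2 when only the 12 libraries were fitted. The ergosterol genes had 10 of 26 interactions above 0 and none below, 6 above 0 with total counts and 1 when only the 12 libraries were fitted.

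Smaller groups also had calls of opposite direction in the 2 backgrounds. Of 25 translation factors 7 rose and 1 fell in the double deletion, where 1 rose and 7 fell in rrp6Δ cells, and 10 interactions lay above 0 and none below, 5 above 0 without double deletion replicate B, 6 without WT replicate B and 3 with total counts or when only the 12 libraries were fitted. Of 16 unfolded protein response genes 1 rose and 5 fell in the double deletion, where 4 rose and 1 fell in rrp6Δ cells, and 6 interactions lay below 0 and none above, 3 below 0 without double deletion replicate B, without WT replicate B or when only the 12 libraries were fitted. Of 18 trehalose and glycogen genes 5 fell and none rose in the double deletion, where 4 rose and 2 fell in rrp6Δ cells, and 5 interactions lay below 0 and none above. The count below 0 was 3 without double deletion, mpk1Δ or WT replicate B, 8 and 9 without double deletion and WT replicate C, 8 with total counts and 2 when only the 12 libraries were fitted. Of 24 genes of the G1 and S phases 3 rose and 1 fell in the double deletion, where none rose and 5 fell in rrp6Δ cells, and of 18 cell wall integrity kinases and sensors 2 rose and none fell in the double deletion, where 1 rose and 6 fell in rrp6Δ cells. The G1 and S genes had 2 interactions above 0 and none below, 9 above 0 without double deletion replicate C and none without double deletion, mpk1Δ or WT replicate B. The kinases and sensors had 2 above 0 and 1 below, none called without double deletion replicate B, and neither list had a call when only the 12 libraries were fitted. Over all genes 10.2% of interactions lay above 0 and 6.63% below. The counts of the G1 and S genes and of the kinases and sensors were near or under those shares.

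The iron regulon and ribosome biogenesis genes were called mostly in the same direction in both backgrounds. Of the iron regulon 13 genes fell and 1 rose in rrp6Δ cells, and 6 interactions lay above 0 and none below, 3 above 0 without double deletion replicate B, with total counts or when only the 12 libraries were fitted. FIT3 stood at -2.02 in mpk1Δ cells and -1.65 in MPK1 cells, ARN2 at -1.50 and -1.66, and YGL088W at 6.39 and 6.69. Of the ribosome biogenesis genes 16 rose and 1 fell in rrp6Δ cells (median 0.42), and 5 interactions lay above 0 and 1 below, 18 above 0 without WT replicate C, 16 without double deletion replicate C, 1 without double deletion replicate A or B, mpk1Δ replicate B, WT replicate B or rrp6Δ replicate B or C, and none when only the 12 libraries were fitted. PRM5 rose in mpk1Δ cells and stood at 0.33 ± 0.19 in MPK1 cells, where it did not pass, with an interaction of 1.15 (edgeR adjusted p = 0.00542). GPA1 and RPA34 had interactions of 0.92 and 1.16.

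**Figure D5:**
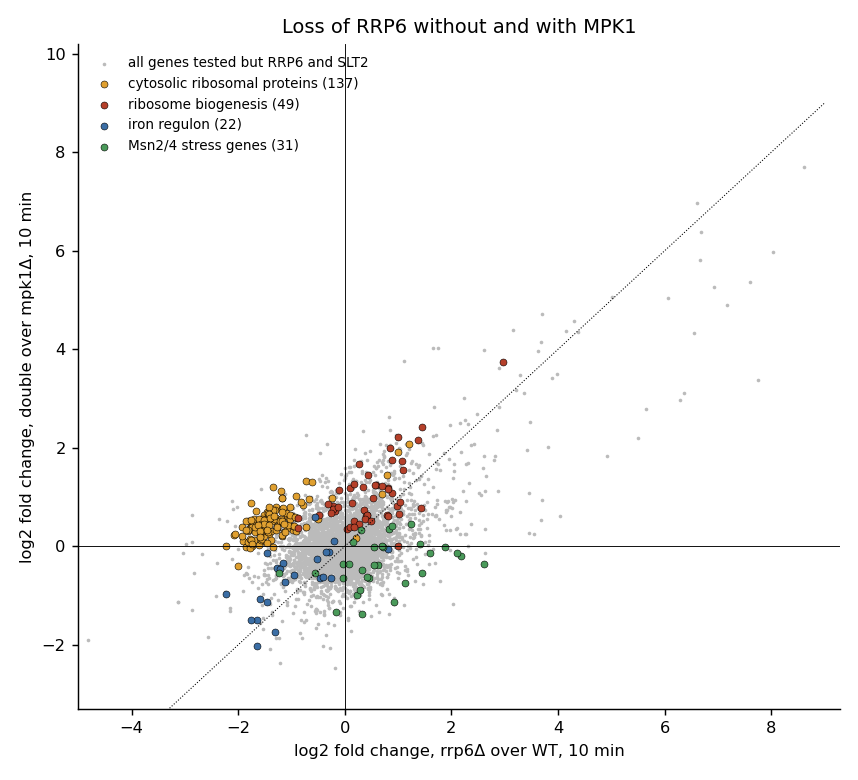
Log2 fold change at 10 min of the double deletion over mpk1Δ cells (vertical) against that of rrp6Δ over WT cells (horizontal), one point a gene, for all tested genes but RRP6 and SLT2, with a dotted line where both are equal. Ribosomal protein genes lie left of 0 and mostly just above it, Msn2/4 stress genes lie mostly right of 0 and below it, and iron regulon genes lie low on both axes.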

How the data were processed

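Total RNA of 36 yeast libraries, 12 groups of 3, was analysed from the deposited count files. Per the submitters' processing notes, reads were aligned with HISAT2 2.1.0 to build R64 and counted per gene with HTSeq; the version of HTSeq and its settings for strand and introns are not given in the sources used here. Values in the deposited files are whole-number counts per reading frame, which the authors had not normalized. The 5 summary lines (no feature, ambiguous, low quality, not aligned, multiply aligned) stayed out of library sizes and tests, and their shares are given with the results. Durations were taken to be in minutes because one label text gives 45 min.

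Genes passing edgeR's filterByExpr (minimum count 10, minimum total 15) were fitted over all 12 groups with edgeR 4.0.16 in R 4.3.3 (TMM scaling, quasi-likelihood test, Benjamini-Hochberg adjustment over 6017 genes, threshold 0.05). Differences between effects were tested as interactions in that fit. CPM values divide a count by the TMM-scaled library size of the tested genes, so levels, list sums and fold changes share one scaling. Counts in a library ranged from 2235918 to 12072112, and intervals on counts would cover counting error only. The p-values rest on the spread between the libraries the labels call replicates, estimated over all 12 groups and not in the compared groups alone. The fit was tried on simulated counts drawn with the same spread for every gene and library. That setting holds no deviating library, so it cannot show how the fit handles such libraries here. DESeq2 1.42.0, its size factors, total counts, other filters, a replicate block, the compared libraries alone and leaving out each library were the alternatives.

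The annotation matched 5917 of 6600 reading frames. Named genes were the 12 largest rises and 12 largest falls among annotated protein-coding genes that were called, did not overlap and averaged 5 CPM or more, at most 4 called members a list and 2 not called, 5 reading frames not in the annotation, and up to 5 genes a direction for each difference; IRC13, the genes with a non-coding RNA and genes given for context lie outside it. The comparison, the lists and the rule were chosen with earlier results of these data known. Promoter and intron sequences are from RefSeq R64.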

Additional observations from a re-analysis of the deposited data

Results flagged for a closer look

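The effect of losing RRP6 in mpk1Δ cells differed between 10 min and 0 min, by an interaction test in edgeR's quasi-likelihood fit, at 454 genes. The phosphate genes PHO84, PHO5 and PHO12 differed by 4.33, 3.64 and 3.14 on the log2 scale (10 min effect minus 0 min effect). PHO5, for a secreted acid phosphatase, averaged 21.7 ± 2.51 CPM in the double deletion and 52.3 ± 13.2 CPM in mpk1Δ cells at 10 min, and 6.46 ± 1.26 CPM in the double deletion and 196 ± 55.1 CPM in mpk1Δ cells at 0 min (SD, n = 3 each). NOG2, the GTPase gene that hosts SNR191, differed by 3.47 and RRP5 by 2.58. ARG1 and ARG4, for the last steps of arginine synthesis, differed by -2.49 and -2.26. ARG4 averaged 117 ± 11.7 CPM in the double deletion and 103 ± 7.27 CPM in mpk1Δ cells at 10 min, and 307 ± 16.5 CPM in the double deletion and 56.3 ± 0.917 CPM in mpk1Δ cells at 0 min. ARO10, for a decarboxylase of amino acid breakdown, differed by -2.83, with 547 ± 70.6 CPM in the double deletion and 831 ± 101 CPM in mpk1Δ cells at 10 min, and 52.8 ± 4.02 CPM in the double deletion and 11.3 ± 3.67 CPM in mpk1Δ cells at 0 min. COX26, a respiratory supercomplex gene, differed by -3.32, a value that rests on unheated mpk1Δ libraries at 0.351 ± 0.379 CPM, near the level of 3 counts.

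The effect in mpk1Δ cells differed from that in cells with MPK1, by the interaction test at 10 min, at 1010 genes. ASI3, for a nuclear-envelope ubiquitin ligase, differed by 2.96, with 127 ± 44.0 CPM in the double deletion and 119 ± 38.7 CPM in mpk1Δ cells, and 80.4 ± 3.49 CPM in rrp6Δ and 590 ± 135 CPM in WT cells (SD, n = 3 each). YMR320W differed by 2.82. The ribosomal protein genes RPS9B, RPS26B and RPL11A differed by 2.65, 2.55 and 2.38, and their reads are shared with paralogs. TPO2, for a polyamine exporter, differed by -3.07, with 456 ± 232 CPM in the double deletion and 126 ± 68.7 CPM in mpk1Δ cells, and 821 ± 429 CPM in rrp6Δ and 27.2 ± 1.44 CPM in WT cells. STP4, EGO4 and YER053C-A differed by -3.41, -3.19 and -3.18. MIG2, for a glucose repressor, differed by -3.14, with 14 ± 4.53 CPM in the double deletion and 9.41 ± 1.34 CPM in mpk1Δ cells, and 45.8 ± 16.2 CPM in rrp6Δ and 3.74 ± 0.937 CPM in WT cells. Of genes given above for the 10 min comparison, HSP12, BDH2, AMS1 and COX4 differed by -2.38, -1.84, -1.62 and -1.33, and RPA34, PRM5 and GPA1 by 1.16, 1.15 and 0.92.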

How the results depend on the processing

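The double deletion differed from mpk1Δ cells at 317 genes when only the 6 libraries were fitted, and at 586 to 1827 genes with each library left out, 586 without double deletion replicate B, 604 without mpk1Δ replicate B and 1827 without double deletion replicate C. The difference between the 10 min effect and the 0 min effect was called at 261 to 841 genes with each library left out, the moves over 1.5 times being 261 and 841 without double deletion replicates B and C at 10 min, 267 without mpk1Δ replicate B at 10 min and 297 without mpk1Δ replicate C at 0 min. The difference between the effect in mpk1Δ cells and that in MPK1 cells was called at 177 genes (98 higher, 79 lower) when only its 12 libraries were fitted, and at 503 to 1627 with each library left out, 503 and 1627 without double deletion replicates B and C, 599 without mpk1Δ replicate B, 540 without WT replicate B and 629 without rrp6Δ replicate C. The cause was not tested. DESeq2, its size factors, the low-count filters and annotated genes alone left these counts within 1.5 times. Of 120 called single-gene values, 81 kept their call under every alternative tried, 35 lost it when only the libraries compared were fitted, 24 without double deletion replicate B and 22 without mpk1Δ replicate B, and none changed sign.

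The deviations of same-letter libraries from their group means correlated at 0.159, -0.372 and -0.184 for A, B and C, so the letters were not taken as pairs, although every C library had a lower share of reads not aligned than any A or B library, and what a letter marks is not given in the sources used here. With the letters as a replicate block 1477 genes were called, and 613 and 1245 for the differences between times and between backgrounds. Depth limits genes of low count, where 1 read is a large share of the value.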
